A study of Mus musculus with 192 samples.

Results

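HMW, a ligand of pattern recognition receptors, was given as the only stimulus to mouse bone marrow-derived dendritic cells (BMDC), and its 3 libraries were compared with the 3 libraries of the control group, Ctrl. These 6 libraries were taken by their labelled names from a series of 64 groups with 3 libraries each: Ctrl and 7 ligands given singly, in 21 pairs and in 35 triplets. The cells of every group had been grown with GM-CSF at 15 ng/mL from the bone marrow of female C57BL/6J mice of 6 to 8 weeks, plated at 100000 cells per well and exposed for 6 hours. The labels give no dose, do not spell out the name HMW, do not say what the Ctrl wells received, and do not say whether the libraries of a group came from separate mice or cultures. P-values therefore measure only the spread between these libraries, which may be technical. HMW was also compared directly with the ligands PAM and Zymosan (described in the labels as depleted), and its effect was read a second time in wells that received PAM + HMW or HMW + Zymosan, 3 libraries each.

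Dendritic cells sense microbial components through pattern recognition receptors, and the response runs along a pair of well-known branches. An inflammatory branch, driven largely by NF-κB, raises cytokines and chemokines such as TNF, IL-6 and IL-1. An interferon branch leads to type I interferon, which binds the receptor formed by IFNAR1 and IFNAR2. The kinases JAK1 and TYK2 then activate STAT2, which joins IRF9 in a complex that binds interferon-stimulated response elements, promoter sequences built from GAAA repeats, at genes whose products restrict viruses.

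Total UMI counts (a UMI, or unique molecular identifier, marks 1 original cDNA molecule) were 105332, 194725 and 186920 in HMW replicates 1, 2 and 3 and 61823, 68941 and 89530 in the Ctrl replicates. A single count was worth 4.48 to 8.32 units of CPM (counts scaled to a common library size) with HMW and 9.60 to 13.9 CPM in Ctrl, so low genes were read least precisely in Ctrl. Ribosomal protein genes took 4.80 to 5.06% of counts with HMW and 5.35 to 5.62% in Ctrl. The labelled cell type was checked against 12 dendritic cell markers, of which 8 were tested. Their summed level was 6223 to 6641 CPM with HMW and 6106 to 6648 CPM in Ctrl, with Itgax (encoding CD11c) at 417 ± 14.4 and 421 ± 37.4 CPM (SD, n = 3) and Cd209a at 0 counts in all 6 libraries. The 12 macrophage and monocyte markers summed to 14900 to 16423 CPM with HMW and 16127 to 17714 CPM in Ctrl, and the neutrophil markers to 813 to 1117 and 787 to 1039 CPM. The 8 erythroid markers were at 0 counts in the 6 libraries, and the B cell and T and NK cell lists summed to at most 9.29 CPM in any of them. Plasmacytoid dendritic cell markers, 7 in the list, summed to 223 to 349 CPM with HMW and 137 to 182 CPM in Ctrl, most of it from Bst2, itself a known interferon-response gene, while Ccr9, Ly6d, Cox6a2 and Klk1 were at 0 in the 6 libraries. The part of the ribosomal share and of Bst2-bearing cells in the results was not tested.

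HMW raised a small group of genes, among them 5 of the 15 tested genes of an interferon-response list and 17 of the 49 of a longer antiviral effector list. Both lists were chosen with earlier results of these data known. Of 4720 genes tested with edgeR's quasi-likelihood test, 46 were called, which is 0.975%; a call needed a Benjamini-Hochberg adjusted p under 0.05 and a log2 fold change, up or down, no smaller than 1. They comprised 45 rises (0.953%) and 1 fall (0.0212%), and 28 of the 46 belonged to the gene lists that follow. In 44 of the 45 genes that rose, each HMW library lay above each Ctrl library, and in Irf7 the groups overlapped; over all tested genes the HMW libraries lay apart from Ctrl on the high side in 429 genes (9.09%) and on the low side in 270 (5.72%). The median log2 fold change of all tested genes was 0.03. In bulk RNA, fewer cells of a type and less RNA per cell cannot be told apart, and this holds for every level reported here. The number of called genes rested on single libraries: 20 genes were called when HMW replicate 2 was left out and 30 when Ctrl replicate 3 was, and 15 of the 46 genes were called under each of the 13 alternative settings and left-out libraries that gave an adjusted p for them. Ctrl had less depth than HMW, and with all libraries thinned to an equal total 25 genes were called; DESeq2 called 17, all among the 46, did not call 14 and gave no adjusted p for 15.

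**Figure D1:**
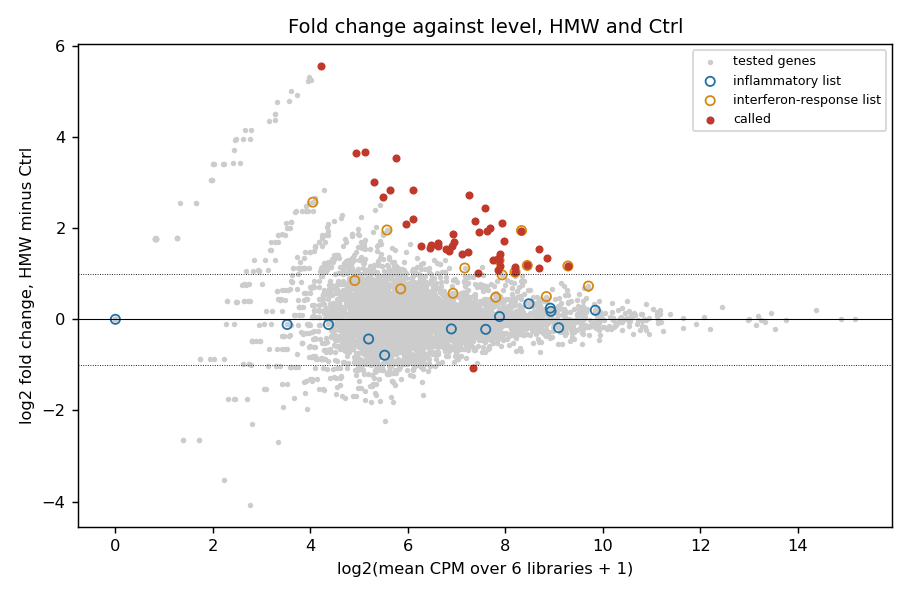
Log2 fold change of HMW over Ctrl (y axis) against log2 of the mean CPM over the 6 libraries plus 1 (x axis) for the 4720 tested genes; filled red points are the 46 called genes, open circles the members of the interferon-response and inflammatory lists, and dotted lines mark the fold threshold. All 15 interferon-response members lie above 0, from 0.48 to 2.57, and the inflammatory members lie between -0.79 and 0.34.

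Of 10 tested components of interferon signalling, 2 rose and none fell, and the receptor chains did not pass the test. Stat2, a transcription factor of the pathway, stood at 341, 354 and 223 CPM in HMW replicates 1, 2 and 3 and at 139, 87.3 and 28.8 CPM in the Ctrl replicates (log2 fold change 1.94, SE 0.31, edgeR adjusted p = 8.79e-07). Every HMW library exceeded the highest Ctrl library. The log2 fold changes of the 8 genes that were not called ran from -0.17 for the receptor chain gene Ifnar1 to 1.03 for Jak1 (adjusted p = 0.266). Irf9, whose product joins STAT2, was at 87.9 ± 12.8 CPM with HMW and 63.1 ± 5.86 CPM in Ctrl (SD, n = 3; 95% interval of the log2 fold change -0.36 to 1.29). The list's median log2 fold change was 0.48. Irf7, the transcription factor that amplifies interferon production, read 399, 421 and 181 CPM with HMW and 83.1, 199.6 and 115 CPM in Ctrl (log2 fold change 1.30, SE 0.30, edgeR adjusted p = 0.00387). HMW replicate 3 lay below Ctrl replicate 2, and its call was lost without HMW replicate 2 (1.03), Ctrl replicate 1 (1.13) or Ctrl replicate 3 (1.18); here and in similar sentences the log2 fold change without that library is in parentheses.

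Interferon genes themselves were barely seen. Of the 7 listed, Ifnb1 alone was tested, with 4 counts over the 3 HMW libraries and 3 over the 3 Ctrl libraries (95% interval of the log2 fold change -2.99 to 1.68). Ifna2, Ifna4, Ifna5, Ifnl2, Ifnl3 and Ifng had no count in any of the 6 libraries. The limit that a count of 0 allows, 3 counts over a group, corresponded to 5.37 CPM with HMW and 11.7 CPM in Ctrl, for counting error only.

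The interferon-response list (Cmpk2, Cxcl10, Ifi44, Ifit3, Ifit2, Ifit1, Irf7, Isg15, Isg20, Mx1, Mx2, Oasl1, Rsad2, Usp18 and Zbp1) held 5 rises among its 15 tested members, against 0.953% over all tested genes. All 15 log2 fold changes were above 0, as were 52.6% of those over all tested genes, with a median of 1.04, and the groups lay apart in 8. Mx1, of a family of interferon-induced GTPases, measured 789.9, 1112 and 659.9 CPM with HMW and 429, 499 and 249.6 CPM in Ctrl (log2 fold change 1.17, SE 0.19, edgeR adjusted p = 2.32e-06). Ifit3, of a family of proteins that bind viral RNA, measured 466, 758 and 302 CPM against 111, 187 and 106 CPM (log2 fold change 1.95, SE 0.34, edgeR adjusted p = 1.46e-05). Its relative Ifit1 measured 416, 677 and 349 CPM against 249, 212 and 192.03 CPM (log2 fold change 1.18, SE 0.25, edgeR adjusted p = 0.000913). In all 3 genes HMW replicate 2 was the highest library and HMW replicate 3 the lowest of the HMW libraries. Cmpk2, a mitochondrial nucleotide kinase induced by interferon, read 416, 502 and 265 CPM with HMW and 208, 187 and 182 CPM in Ctrl (log2 fold change 1.04, SE 0.29, edgeR adjusted p = 0.0394). The calls of Mx1, Ifit1 and Cmpk2 depended on single libraries: Mx1 was lost without HMW replicate 2 (0.93) or Ctrl replicate 3 (0.89), Ifit1 without HMW replicate 2 (0.83) or with thinned libraries (0.72), and Cmpk2 without HMW replicate 1 (1.04), HMW replicate 2 (0.79), Ctrl replicate 1 (1.12), Ctrl replicate 2 (1.05) or Ctrl replicate 3 (0.99) or with thinned libraries (0.51). Cmpk2 was also lost with RLE factors, another scaling of the libraries.

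The other 10 members of that list did not pass. Of those given here, Rsad2 and Zbp1 came near the adjusted p limit, and Rsad2 also missed the fold threshold. Rsad2, which encodes viperin, read 981, 1309 and 809 CPM with HMW and 720.2, 698 and 489.7 CPM in Ctrl, apart in every library (log2 fold change 0.73, 95% interval 0.32 to 1.15, edgeR adjusted p = 0.0512). Cxcl10, a chemokine that attracts activated T cells, read 457, 717 and 423 CPM against 305, 511 and 336 CPM, with overlapping groups (0.50, -0.05 to 1.04, adjusted p = 0.626). Isg15, a ubiquitin-like modifier, read 316, 282 and 191 against 139, 225 and 182 CPM (0.48, -0.06 to 1.03, adjusted p = 0.646). Zbp1, a sensor of Z-form nucleic acid, had 44 counts over the HMW libraries and 5 over Ctrl (log2 fold change 1.96, adjusted p = 0.0718). The intervals of Rsad2, Cxcl10 and Isg15 reach past the fold threshold, so these values do not show that the genes stayed level.

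**Figure D2:**
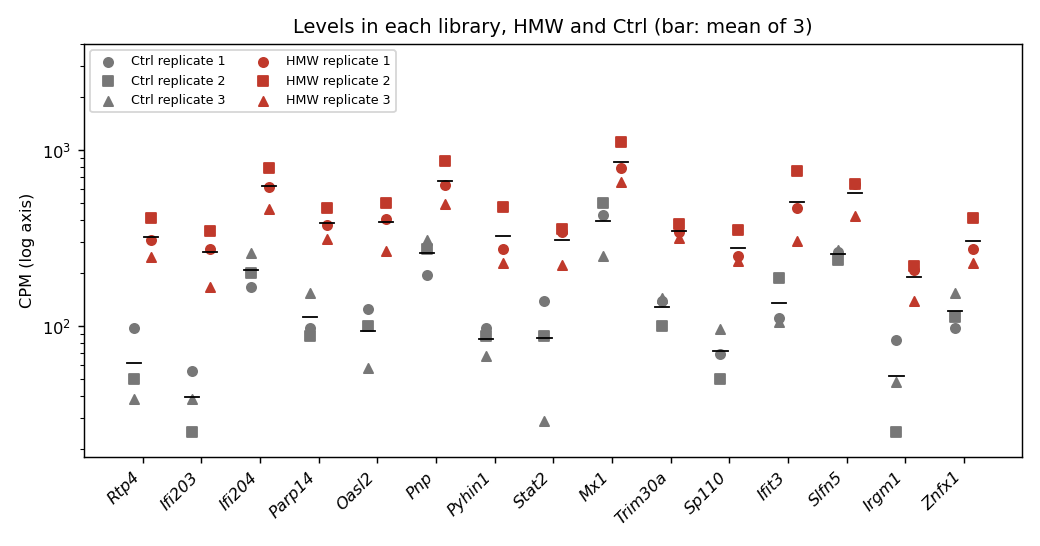
CPM on a log axis in each library of HMW (red) and Ctrl (grey) for 15 of the 16 rises with the smallest p-values, with symbols for replicates 1, 2 and 3 and a bar at each mean of 3. In each gene every red point lies above every grey point, and the red square (HMW replicate 2) is the highest of the 3.

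A longer list of 54 antiviral effectors held 49 tested genes, of which 17 rose and none fell, against 0.953% rises over all tested genes. In 48 of the 49 the log2 fold change was above 0 (52.6% over all tested genes). The groups lay apart on the high side in 35 (9.09% over all tested genes), and the median was 1.15. All 49 were also called higher than Ctrl with LPS, with SeV and with cGAMP. This list and the interferon-response list were chosen with earlier results of these data known, so their counts are a description. Of the 4 tested PYHIN family members in the effector list, proteins of the Ifi200 locus that bind DNA and regulate transcription, Ifi203 and Pyhin1 rose. Ifi205 and Mnda did not pass, at log2 fold changes of 0.67 and 0.94 (edgeR adjusted p = 0.838 and 0.624). Ifi203 read 274, 345 and 167 CPM with HMW and 55.4, 24.9 and 38.4 CPM in Ctrl (log2 fold change 2.72, SE 0.35, edgeR adjusted p = 4.8e-10). Ifi204, a family member placed in the list of nucleic acid sensing, read 615, 789 and 460.1 CPM against 166, 199.6 and 259 CPM (log2 fold change 1.54, SE 0.21, edgeR adjusted p = 5.21e-09). Pyhin1, listed in RefSeq as Ifi209, read 274, 475 and 228 CPM against 97.0, 87.3 and 67.2 CPM (log2 fold change 2.01, SE 0.31, edgeR adjusted p = 3.73e-07). In Ifi203, Ifi204 and Pyhin1 the lowest HMW library was well clear of the highest Ctrl library. They lie close together on the chromosome (RefSeq, GRCm38.p6): Pyhin1 at chr1:173630859-173647928, Ifi204 at chr1:173747293-173767069 and Ifi203 at chr1:173920400-173942866. A further gene of this stretch, AI607873 at chr1:173723424-173741831, rose by less than the fold threshold (log2 0.84, edgeR adjusted p = 0.0113). Reads shared between such near-identical relatives are an uncertainty of these values, since how they were counted is not given in the sources used here, and the same holds for the Ifit, Oas, Trim30, Gbp and Ms4a6 genes.

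OAS proteins are, or resemble, enzymes that produce the oligoadenylate second messenger that activates RNase L. Of the 5 in the effector list, Oasl2, Oas2 and Oas3 rose, and Oas1a (log2 fold change 0.75, edgeR adjusted p = 0.866) and Oas1g (edgeR adjusted p = 0.757, at 0 in all 3 Ctrl libraries and in HMW replicate 2) did not pass. Oasl2 read 407, 502 and 265 CPM with HMW and 125, 99.8 and 57.6 CPM in Ctrl (log2 fold change 2.11, SE 0.30, edgeR adjusted p = 4.23e-08). Oas2 read 108, 135 and 55.8 CPM against 0, 12.5 and 9.60 CPM (log2 fold change 3.54, SE 0.71, edgeR adjusted p = 0.000323), but Ctrl held few counts: 55 counts against 2, or 12.6 times after depth scaling (counting interval 3.33 to 107). Its neighbour Oas3 read 83.2, 161 and 102 CPM against 13.9, 49.9 and 48.0 CPM (log2 fold change 1.62, SE 0.44, edgeR adjusted p = 0.0318). Oas2 lies at chr5:120730333-120749886 and Oas3 at chr5:120753098-120777684. The call of Oas2 was lost with thinned libraries (2.64, edgeR adjusted p = 0.0877), and that of Oas3 without HMW replicate 2 (1.29), Ctrl replicate 1 (1.33), Ctrl replicate 2 (1.84) or Ctrl replicate 3 (1.86) or with thinned libraries (1.34). Oas3 was also lost with RLE factors.

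Of the 3 listed members of the PARP family, which add ADP-ribose to proteins, Parp12 and Parp14 rose, and Parp9 did not pass (log2 fold change 0.77, edgeR adjusted p = 0.555). Parp14 read 374, 471 and 311 CPM with HMW and 97.0, 87.3 and 154 CPM in Ctrl (log2 fold change 1.73, SE 0.25, edgeR adjusted p = 3.68e-08). Parp12 read 191, 152 and 149 CPM against 41.6, 62.4 and 57.6 CPM (log2 fold change 1.54, SE 0.34, edgeR adjusted p = 0.00387), and its call was lost without Ctrl replicate 3 (1.60) or with thinned libraries (1.06). The immunity-related GTPases, which act on vacuoles of intracellular pathogens, had 4 listed members, of which Irgm1, Igtp and Ifi47 rose and Iigp1 did not pass (log2 fold change -0.52, edgeR adjusted p = 0.902). Irgm1 read 208, 219.7 and 139 CPM against 83.1, 24.9 and 48.0 CPM (log2 fold change 1.86, SE 0.36, edgeR adjusted p = 0.000204). Igtp read 166, 126 and 74.4 CPM against 0, 24.9 and 19.2 CPM (log2 fold change 2.83, SE 0.58, edgeR adjusted p = 0.000407), from 64 counts against 4. Ifi47 read 324, 426 and 237 CPM against 111, 149.7 and 134 CPM (log2 fold change 1.31, SE 0.26, edgeR adjusted p = 0.000347); without HMW replicate 2 (1.05) or with thinned libraries (1.17) its call was lost. Irgm1 (chr11:48865245-48871420) and Ifi47 (chr11:49076587-49096987) lie in the same stretch of chromosome 11. Groups did not overlap in Parp12, Parp14, Irgm1, Igtp or Ifi47.

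The remaining called members of the effector list were of mixed function. Trim30a, a RING-domain protein that dampens innate signalling, read 341, 381 and 316 CPM with HMW and 139, 99.8 and 144 CPM in Ctrl (log2 fold change 1.43, SE 0.24, edgeR adjusted p = 3.04e-06), and Trim30d read 141, 260.1 and 121 CPM against 97.0, 74.8 and 19.2 CPM (log2 fold change 1.60, SE 0.37, edgeR adjusted p = 0.00387). Slfn5, of the Schlafen family, read 640.3, 641 and 423 CPM against 263, 237 and 269 CPM (log2 fold change 1.12, SE 0.20, edgeR adjusted p = 1.46e-05). Samd9l, a growth-restraining protein of the endosomal system, read 216, 265 and 130.1 CPM against 69.3, 62.4 and 86.4 CPM (log2 fold change 1.44, SE 0.37, edgeR adjusted p = 0.0113). Ifitm3, a membrane protein that blocks viral entry, read 366, 547 and 293 CPM against 222, 162 and 173 CPM (log2 fold change 1.15, SE 0.28, edgeR adjusted p = 0.0076). Pnp, the purine nucleoside phosphorylase, read 632, 865 and 493 CPM against 194, 274 and 307 CPM (log2 fold change 1.34, SE 0.19, edgeR adjusted p = 5.51e-08). Ms4a6d, a membrane protein of myeloid cells, read 266, 233 and 199.8 CPM against 139, 74.8 and 125 CPM (log2 fold change 1.01, SE 0.28, edgeR adjusted p = 0.0336), just above the fold threshold. Slfn5, Pnp and Trim30a were called without any one library. Trim30d was lost without HMW replicate 2 (1.14) or Ctrl replicate 3 (1.07) or with thinned libraries (0.86), Samd9l without HMW replicate 2 (1.16), Ctrl replicate 1 (1.44), Ctrl replicate 2 (1.37) or Ctrl replicate 3 (1.61) or with thinned libraries (0.80), Ifitm3 without HMW replicate 2 (0.83), Ctrl replicate 2 (1.10) or Ctrl replicate 3 (1.09) or with thinned libraries (0.73), and Ms4a6d without HMW replicate 1 (0.97), HMW replicate 2 (1.02), Ctrl replicate 2 (0.83) or Ctrl replicate 3 (1.12). The call of Ms4a6d was also lost under other scalings, with RLE factors or with library size alone.

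The 45 rises were looked up in a RefSeq table of promoter windows (GRCm38.p6, 250 bases before to 50 bases after each gene's start), where 38 had an entry. The motif GAAA-NN-GAAA (N, any base), a core of interferon-stimulated response elements, was searched on both strands; on the other strand it reads TTTC-NN-TTTC. This was present in 14 of the 38 genes (36.8%), in 184 of 3614 tested genes with an entry (5.09%) and in 1079 of 27025 genes in all (3.99%); the genes were chosen for their rise, and a match is a description, not a binding site. The stretches that follow, from the bases before a start of 7 of them, show the arrangement, with every match in capitals and the sequence read in the direction of the gene. Ifi203 (chr1:173942493-173942557, minus strand), Igtp (chr11:58199492-58199555, plus) and Irgm1 (chr11:48871421-48871480, minus) carry the forward motif within 35 bases of a start, with a pair of overlapping matches in Irgm1. The table holds 2 starts for Ifi203, and the stretch precedes the one further inside the gene, so it lies within the annotated span of Ifi203 given above. Ifit3 (chr19:34583343-34583446, plus) and Ifit1 (chr19:34640755-34640843, plus) each carry a pair of matches on the other strand; the Ifit3 stretch too lies within the gene's annotated span, before the start that the table uses. Trim30a (chr7:104465194-104465259, minus) and Trim30d (chr7:104507851-104507920, minus) share 65 of the first 66 bases of the stretch.
Ifi203: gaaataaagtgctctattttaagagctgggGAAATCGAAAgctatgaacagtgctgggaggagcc
Igtp: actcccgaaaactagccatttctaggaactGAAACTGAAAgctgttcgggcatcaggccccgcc
Irgm1: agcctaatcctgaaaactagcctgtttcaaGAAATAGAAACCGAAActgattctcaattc
Ifit3: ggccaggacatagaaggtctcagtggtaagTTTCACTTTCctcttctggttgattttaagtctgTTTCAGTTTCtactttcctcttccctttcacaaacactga
Ifit1: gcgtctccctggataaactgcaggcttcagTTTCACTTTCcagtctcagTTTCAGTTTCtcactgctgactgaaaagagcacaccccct
Trim30a: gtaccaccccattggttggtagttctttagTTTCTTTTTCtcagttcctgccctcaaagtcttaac
Trim30d: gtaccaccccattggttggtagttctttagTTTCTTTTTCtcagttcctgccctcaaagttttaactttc

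The motif matches in Ifi203, Igtp and Irgm1 begin 35, 34 and 30 bases before these starts. Those of Ifit3 begin 156 and 122 bases before it, and those of Ifit1 104 and 85. In Trim30a and Trim30d the match, on the other strand, begins 36 and 41 bases before the start. The other called genes with a match were Stat2, Slfn5, Ddx58, Lgals9, Ifitm3, Slc25a22 and Oas3. No match in a window says only that these letters are not in it, as in the case of Oasl2, Pnp and Sp110.

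Among 16 tested genes of nucleic acid sensing, Ifi204 and Ddx58 rose, none fell, and the median log2 fold change was 0.44. Ddx58 encodes RIG-I, the cytoplasmic sensor of viral RNA, and read 175, 260.1 and 130.1 CPM with HMW and 41.6, 49.9 and 76.8 CPM in Ctrl (log2 fold change 1.70, SE 0.36, edgeR adjusted p = 0.000755); its call was lost without HMW replicate 2 (1.34). Ifih1, encoding the related sensor MDA5, was at 165 ± 15.4 CPM with HMW and 90.1 ± 31.1 CPM in Ctrl (SD, n = 3) and did not pass (log2 fold change 0.81, adjusted p = 0.409). Irf3 and Tbk1, the transcription factor and kinase downstream of these sensors, had log2 fold changes of 0.0021 and -0.07 with intervals of -0.91 to 0.92 and -0.69 to 0.56. Of 13 tested genes of MHC class I presentation, Tap1, the peptide transporter subunit, was the 1 called: 208, 170.4 and 139 CPM with HMW and 55.4, 37.4 and 76.8 CPM in Ctrl (log2 fold change 1.51, SE 0.34, edgeR adjusted p = 0.00387), lost without Ctrl replicate 2 (1.32) or with thinned libraries (1.18). Psme2, a subunit of the proteasome activator, rose under the fold threshold, from 199.8 ± 7.87 to 384 ± 19.0 CPM (log2 fold change 0.95, SE 0.22, edgeR adjusted p = 0.0034). The class I list had 12 of 13 log2 fold changes above 0 and a median of 0.36; B2m, the light chain, was at 6253, 6300.1 and 5730.2 CPM with HMW and 5194, 5001 and 5012 CPM in Ctrl, apart but not past the test (0.27, adjusted p = 0.368).

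**Figure D3:**
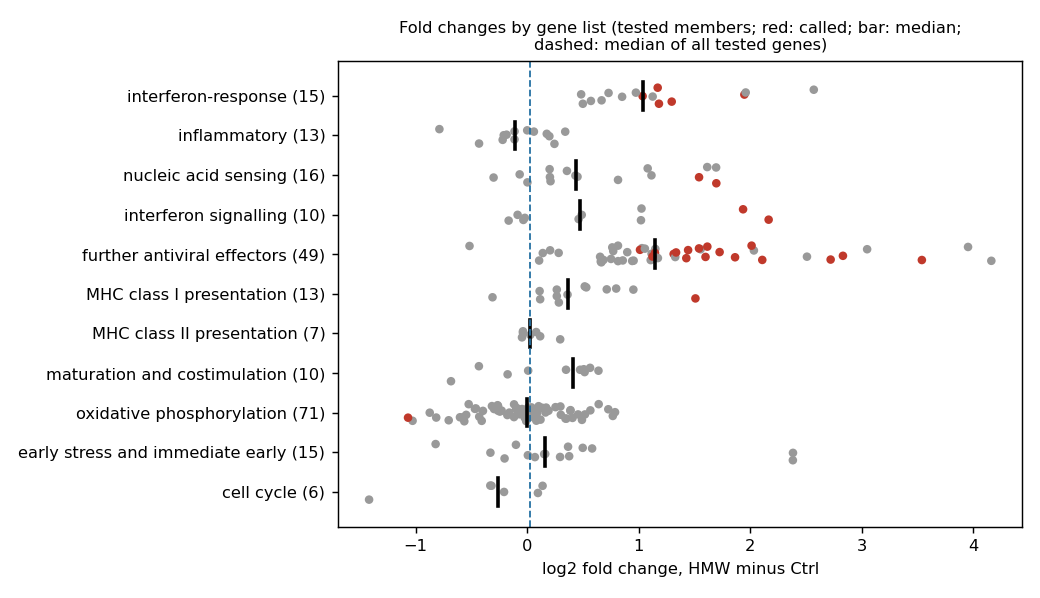
Log2 fold change of HMW over Ctrl (x axis) for every tested member of 11 gene lists (rows, with the number tested), red where called, with a bar at each list's median and a dashed line at the median of all tested genes, 0.03. The interferon-response and antiviral effector lists have medians of 1.04 and 1.15, and those of the inflammatory, MHC class II and oxidative phosphorylation lists lie between -0.11 and 0.03.

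The genes called outside the lists numbered 18, all of them rises. Rtp4, a chaperone of G protein-coupled receptors known as an interferon-induced gene, had the smallest p-value of the comparison: 308, 408 and 246 CPM with HMW and 97.0, 49.9 and 38.4 CPM in Ctrl (log2 fold change 2.45, SE 0.31, edgeR adjusted p = 4.36e-10). Sp110, a nuclear body protein, read 249, 349.8 and 232 CPM against 69.3, 49.9 and 96.0 CPM (log2 fold change 1.92, SE 0.32, edgeR adjusted p = 5.44e-06). Znfx1, an RNA helicase, rose by 1.31 on the log2 scale (edgeR adjusted p = 0.00022), Helz2, another helicase, by 1.68 (adjusted p = 0.0053), and Trex1, the main cytoplasmic DNA exonuclease, by 1.48 (adjusted p = 0.00387). Nucleotide metabolism was represented by Nt5c3, a nucleotidase (2.21, adjusted p = 0.00253), and Dck, the deoxycytidine kinase (2.10, adjusted p = 0.00387). Lgals9, encoding galectin 9, rose by 1.17 (adjusted p = 0.00387) and H2-M2, a nonclassical class I gene, by 1.09 (adjusted p = 0.00773). Slc25a22, a mitochondrial glutamate carrier, Ms4a6c and Dnaja1, a co-chaperone, rose by 1.63, 1.61 and 1.57 (adjusted p = 0.0184, 0.0336 and 0.0382). Rtp4 and Sp110 were called under each of the 13 alternatives. Lgals9 was called whichever library was left out, but not with thinned libraries (log2 0.96, edgeR adjusted p = 0.208) or by DESeq2 (adjusted p = 0.0576). Znfx1 was lost without HMW replicate 2 (1.00) or with thinned libraries (1.13), H2-M2 without HMW replicate 2 (0.99) or Ctrl replicate 3 (1.00), and Trex1 without HMW replicate 2 (1.31) or Ctrl replicate 2 (1.12) or with thinned libraries (1.07). Helz2 was lost without HMW replicate 2 (1.29) or Ctrl replicate 3 (1.51) or with thinned libraries (1.16), Nt5c3 without HMW replicate 2 (1.78) or Ctrl replicate 3 (1.73), and Dck without HMW replicate 2 (1.60) or Ctrl replicate 3 (1.63) or with thinned libraries (1.02). Slc25a22 was lost without HMW replicate 2 (1.45), Ctrl replicate 2 (1.40) or Ctrl replicate 3 (1.53), Dnaja1 without HMW replicate 2 (1.45), Ctrl replicate 2 (1.20) or Ctrl replicate 3 (1.69) or with thinned libraries (2.07), and Ms4a6c without HMW replicate 1 (1.52), HMW replicate 2 (1.38), Ctrl replicate 1 (1.43), Ctrl replicate 2 (1.68) or Ctrl replicate 3 (1.85) or with thinned libraries (1.35). HMW replicate 2 was among the libraries each of these 9 calls rested on. The calls of Ms4a6c and Dnaja1 were also lost with RLE factors. Over the lists as well, the 14 genes that DESeq2 did not call were Lgals9, Ifitm3, Znfx1, Irf7, Ddx58, Trex1, Cmpk2, H2-M2, Samd9l, Tap1, Parp12, Uqcrh, Trim30d and Ms4a6d, with adjusted p from 0.0576 to 0.283. The 15 for which it gave none were Oas2, Oas3, Igtp, Helz2, Nt5c3, Dck, Slc25a22, Ms4a6c, Dnaja1, Sfmbt1, Zfp131, Papd7, Chuk, Tpst1 and 1600014C10Rik.

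The largest fitted fold changes came from genes with at most 3 counts over the Ctrl libraries, and they are better read as counts. Sfmbt1, a chromatin protein, had 19 counts over the HMW libraries and none in Ctrl, at least 2.91-fold higher against 3 counts over the group (adjusted p = 0.0336). Zfp131, a zinc finger protein, had 32 counts against 1, or 14.7 times after depth scaling (counting interval 2.46 to 598), with an edgeR adjusted p = 0.00504. Papd7, a poly(A) polymerase listed in RefSeq as Tent4a, had 32 counts against 1, or 14.7 times after depth scaling (counting interval 2.46 to 598), with an edgeR adjusted p = 0.00387. Chuk, the kinase IKKα, had 38 counts against 2, or 8.73 times after depth scaling (counting interval 2.26 to 74.7), with an edgeR adjusted p = 0.0316. Tpst1, a tyrosine sulfotransferase, had 44 counts against 3, or 6.74 times after depth scaling (counting interval 2.16 to 33.9), with an edgeR adjusted p = 0.00387, and 1600014C10Rik had 50 counts against 3, or 7.66 times after depth scaling (counting interval 2.47 to 38.4), with an edgeR adjusted p = 0.00822. These intervals are exact, at 95%, and cover counting error only. Every one of these calls was lost without at least 1 library: Zfp131 without Ctrl replicate 1 (3.29) or Ctrl replicate 2 (3.23), Papd7 without HMW replicate 2 (3.40) or Ctrl replicate 2 (3.20), Tpst1 without HMW replicate 2 (2.44) or Ctrl replicate 1 (2.26) or with thinned libraries (2.21), and 1600014C10Rik without HMW replicate 2 (2.60), Ctrl replicate 2 (2.35) or Ctrl replicate 3 (2.13) or with thinned libraries (2.33). Chuk was lost without HMW replicate 1 (2.95), HMW replicate 2 (2.93), Ctrl replicate 1 (2.61), Ctrl replicate 2 (3.46) or Ctrl replicate 3 (3.25), and Sfmbt1 without HMW replicate 2 or any Ctrl replicate (edgeR adjusted p from 0.0796 to 0.23).

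The single called fall was Uqcrh, the hinge subunit of respiratory complex III, at 108, 98.6 and 102 CPM with HMW and 249, 225 and 182 CPM in Ctrl (log2 fold change -1.07, SE 0.30, edgeR adjusted p = 0.0336). The HMW libraries lay close together and all below Ctrl, yet the call was lost without any one of the 6 libraries, at log2 fold changes from -1.20 to -0.94, and DESeq2 did not make it. It was also lost with no filter on low counts and with thinned libraries. The other 70 tested genes of oxidative phosphorylation were not called, and the list's median was -0.0030 with 35 members above 0 and 36 below. The falls next in p-value were Rpl35a, a ribosomal protein gene, at 468 ± 40.7 CPM with HMW and 680.5 ± 103 CPM in Ctrl (SD, n = 3; log2 fold change -0.55, adjusted p = 0.0587), and Taz, at 33.3, 13.5 and 23.2 CPM against 97.0, 62.4 and 76.8 CPM (-1.81, adjusted p = 0.0609). Neither passed.

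The fold threshold divided the 57 genes with an adjusted p under 0.05 (1.21% of those tested) near a log2 fold change of 1. Just inside lay Ms4a6d at 1.01, Cmpk2 at 1.04 and Uqcrh at -1.07. Just outside lay Tor3a, an ATPase of the endoplasmic reticulum, at 0.99, Nampt, the NAD-synthesis enzyme, at 0.96 and Psme2 at 0.95. The other genes left out by size alone were Mtpn (0.85), AI607873 (0.84), Gbp2 (0.81), Irg1 (0.81), Rhoa (0.79), Sdcbp (0.74), Clec4e (0.68) and Lgals3bp (0.66), all of them higher with HMW. Irg1, which makes itaconate from an intermediate of the citric acid cycle, read 632, 901 and 599.5 CPM with HMW and 402, 474 and 365 CPM in Ctrl.

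None of the 13 tested inflammatory genes (of 15 listed) was called, and in none did the groups lie apart. Over all tested genes 0.975% were called, and 9.09% and 5.72% lay apart on the high and the low side, so in a list this short these counts are near the background. Tnf read 989.5, 1063 and 902 CPM with HMW and 637, 1135 and 797 CPM in Ctrl (log2 fold change 0.20, 95% interval -0.21 to 0.61, edgeR adjusted p = 0.865). Il6 read 83.2, 157 and 88.3 CPM against 97.0, 99.8 and 182 CPM (-0.21, -0.89 to 0.47, adjusted p = 0.926). Both intervals leave out a rise of the fold threshold. The chemokine genes Ccl3 and Cxcl2 had log2 fold changes of -0.19 (-0.62 to 0.25) and 0.18 (-0.34 to 0.69). Il1b, with the smallest p-value of the list, read 482, 349.8 and 372 CPM against 319, 362 and 259 CPM (0.34, -0.07 to 0.75, adjusted p = 0.681). Il12b had 6 counts against 3 and Il10 none in any of the 6 libraries, too few to give a direction. The list's median was -0.11, and its sign turned with the setting: it was 0.04 without the filter on low counts and 0.09 without Ctrl replicate 3.

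Since 0.975% of all tested genes were called, a count of none in the short lists of this paragraph is near the background. Of 10 tested maturation and costimulation genes none was called, with a median of 0.41. Cd274, encoding PD-L1, had the smallest p-value, at 441, 489 and 362 CPM with HMW and 152, 362 and 298 CPM in Ctrl (log2 fold change 0.64, 95% interval 0.24 to 1.04, edgeR adjusted p = 0.096). Icam1, an adhesion molecule, and Ccr7, the lymph-node homing receptor, had log2 fold changes of 0.35 (-0.08 to 0.77) and 0.52 (0.04 to 0.99). None of 7 MHC class II genes was called: the median was 0.03, and the intervals of H2-Aa (-0.09 to 0.32), H2-Ab1 (-0.26 to 0.18) and the protease gene Ctss (-0.13 to 0.29) were narrow around no change. Among 15 early stress genes none was called; Hspa1b, with the smallest p-value, had 13 counts against 1 (adjusted p = 0.439), and the abundant Hspa5, Atf3 and Hmox1 had log2 fold changes of 0.30, -0.20 and 0.50. Of the cell cycle list 6 of 20 genes were tested and none called, with Mcm6 at the smallest p-value (-1.42, adjusted p = 0.409) and Pcna, Tubb5 and H2afz at -0.21, -0.33 and 0.10.

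The 3 HMW libraries differed in level over the genes that rose. Over the 45 genes that rose, HMW replicate 2 was the highest library in 35 and replicate 1 in 10, and replicate 3 was the lowest in 40. The median log2 ratio of a library to the Ctrl mean was 1.70, 2.05 and 1.30 in replicates 1, 2 and 3. In a check for libraries deposited more than once, the chi-square per degree of freedom was 1.23 to 1.40 between HMW replicates and 1.10 to 1.16 between Ctrl replicates. This statistic grows with depth, so the values of HMW and Ctrl are not comparable, and no pair was counted as 1 sample.

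HMW was then set directly against another pair of single ligands, PAM and Zymosan, a yeast cell wall preparation, in contrasts that use no Ctrl library. Most inflammatory genes were lower with HMW than with either. Against PAM 614 genes were called (13% of those tested), 291 higher (6.17%) and 323 lower (6.84%) with HMW. Against Zymosan 248 were called (5.25%), 70 higher (1.48%) and 178 lower (3.77%). Of the 13 inflammatory genes 11 were lower with HMW than with PAM (median log2 fold change -3.36) and 9 lower than with Zymosan (-1.38), and none was higher. Tnf was at 985 ± 80.7 CPM with HMW, 8099 ± 526 CPM with PAM and 5373 ± 149 CPM with Zymosan (SD, n = 3), log2 fold changes of -3.04 (SE 0.17, edgeR adjusted p = 5.99e-41) and -2.45 (SE 0.17, adjusted p = 1.62e-29). Il1b, encoding a secreted pyrogen, was at 401 ± 71.0, 8129.7 ± 506 and 893 ± 34.7 CPM (-4.37 and -1.18, adjusted p = 1.33e-76 and 1.81e-10). Cxcl1, a neutrophil attractant, was at 32.8 ± 19.1, 1724 ± 110.0 and 245 ± 5.41 CPM. Among maturation genes, Cd40, Fscn1, Tnfsf9 and Ccl22 were lower with HMW than with PAM, and Ccl22 also lower than with Zymosan.

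No member of the interferon-response list was called lower with HMW than with either ligand; 13 and 14 of its 15 log2 fold changes were above 0 against PAM and Zymosan (51.6% and 52.3% over all tested genes), with a median of 0.41 in both. Ifit3 was higher with HMW than with both: 509 ± 231 CPM against 179 ± 36.3 with PAM (1.51, edgeR adjusted p = 9.56e-07) and 239.8 ± 131 with Zymosan (1.08, adjusted p = 0.00112). Oasl1 was higher than with PAM (1.06, adjusted p = 0.0266). Of the 45 genes raised by HMW, 8 were higher and 3 lower with HMW than with PAM, and 5 higher and none lower than with Zymosan; these genes were chosen with the same HMW libraries, so the counts are a description. Sp110, Ifit3, Oas3 and 1600014C10Rik were higher in both comparisons. Ifi204, Oasl2, Pyhin1 and Dck were higher by the call against PAM. H2-M2, Ms4a6c and Ms4a6d were lower than with PAM, at -1.94, -1.52 and -1.92. With library size in place of TMM scaling the median of all genes moved from 0.02 to 0.17 against PAM and from 0.03 to 0.14 against Zymosan, and the called genes divided into 401 higher and 271 lower, and 117 higher and 148 lower. RLE factors gave 329 higher and 302 lower against PAM, and 102 higher and 161 lower against Zymosan.

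**Figure D4:**
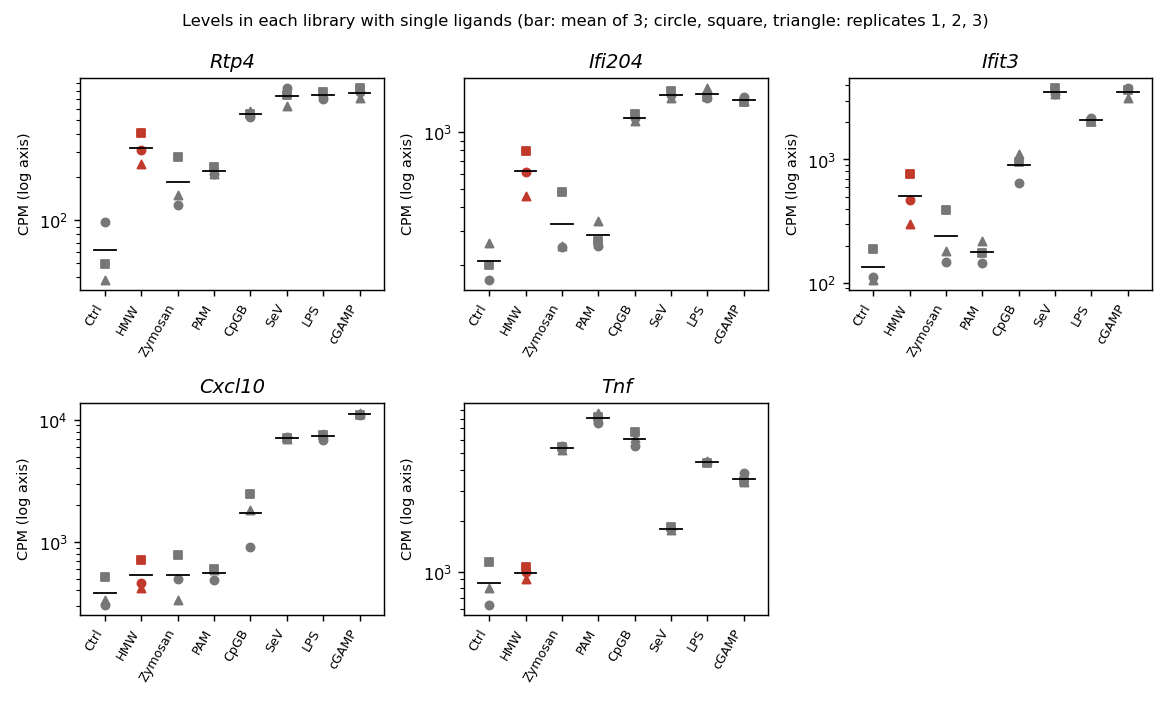
CPM on a log axis in each library of Ctrl and the 7 single ligands for Rtp4, Ifi204, Ifit3, Cxcl10 and Tnf, with a bar at the mean of 3 and HMW in red. In Rtp4, Ifi204 and Ifit3 the HMW mean lies between those of Ctrl, PAM and Zymosan below it and CpGB, SeV, LPS and cGAMP above it, and in Tnf it lies beside Ctrl and below the other 6 ligands.

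Set beside the other single ligands, HMW gave levels of Rtp4, Ifi204 and Ifit3 above PAM and Zymosan and below the other 4 ligands on average, but not of Cxcl10. Rtp4 averaged 61.8 ± 31.0 CPM in Ctrl, 184 ± 79.2 with Zymosan, 219 ± 14.9 with PAM, 321 ± 81.6 with HMW, 551 ± 26.2 with CpGB, 737 ± 102 with SeV, 752 ± 45.2 with LPS and 776 ± 61.9 with cGAMP (SD, n = 3). In that order the HMW libraries overlapped with those of Zymosan, lay above those of PAM and lay below those of CpGB. Ifi204 averaged 622 ± 165 CPM with HMW, and with CpGB, cGAMP, SeV and LPS it averaged 1188 ± 51.0, 1472 ± 52.2, 1572 ± 58.9 and 1577 ± 107 CPM. Ifit3 averaged 509 ± 231 CPM with HMW, 907 ± 235 with CpGB, whose libraries overlapped with those of HMW, and 3532 ± 331 with cGAMP. In Ifi204 and Ifit3 too the HMW libraries overlapped with those of Zymosan. HMW replicate 3 read 460 and 302 CPM in these genes, and Zymosan replicate 2 read 480 and 390 CPM. Cxcl10 averaged 533 ± 161 CPM with HMW, 536 ± 227 with Zymosan and 558 ± 62.6 with PAM, with overlapping libraries, and 11101 ± 244 CPM with cGAMP. Each ligand's own median over the 45 genes against Ctrl was 1.63 for HMW, 1.21 for PAM, 1.10 for Zymosan, 2.81 for CpGB, 3.13 for SeV, 3.23 for cGAMP and 3.46 for LPS on the log2 scale. These comparisons share the Ctrl libraries, and the genes were chosen with HMW, so the values stand side by side as a description.

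The effect of HMW was read a second time in libraries of neither HMW alone nor Ctrl, by comparing PAM + HMW with PAM and HMW + Zymosan with Zymosan. These libraries had entered the filter and the pooled spread behind the 45 calls, as had all libraries of the series. HMW raised genes on top of both ligands. Added to PAM it raised 79 genes (1.67% of those tested) and lowered 4 (0.0847%), and added to Zymosan it raised 87 (1.84%) and lowered 5 (0.106%). Of the 45 genes raised by HMW alone, 27 were called higher on top of PAM, with 41 log2 fold changes above 0 and a median of 1.21, and 33 were called higher on top of Zymosan, with 44 above 0 and a median of 1.20. Over all tested genes the share above 0 was 48.3% and 50% and the medians were -0.02 and 0.0002. The 33 fell to 21 without Zymosan replicate 3, while the 27 stayed between 25 and 29 whichever library was left out.

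Ifit1 averaged 344 ± 44.5 CPM with PAM and 1377 ± 229 CPM with PAM + HMW (log2 fold change 1.98, SE 0.17, edgeR adjusted p = 2.81e-20), and 376 ± 181 CPM with Zymosan and 969 ± 289 CPM with HMW + Zymosan (1.43, SE 0.18, adjusted p = 1.06e-10). Ifi204 rose from 285 ± 47.6 to 841 ± 51.3 CPM on PAM (1.55, adjusted p = 2.33e-15) and from 327 ± 133 to 917 ± 129.8 CPM on Zymosan (1.50, adjusted p = 2.92e-14), close to its log2 fold change of 1.54 with HMW alone. Irf7 rose by 1.40 and 1.25 (edgeR adjusted p = 5.61e-09 and 2.84e-06), and Ifitm3 by 1.73 and 1.39 (adjusted p = 2.9e-13 and 2.64e-08). Irf7 and Ifitm3 passed in both, although with HMW alone their calls were lost without single libraries.

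**Figure D5:**
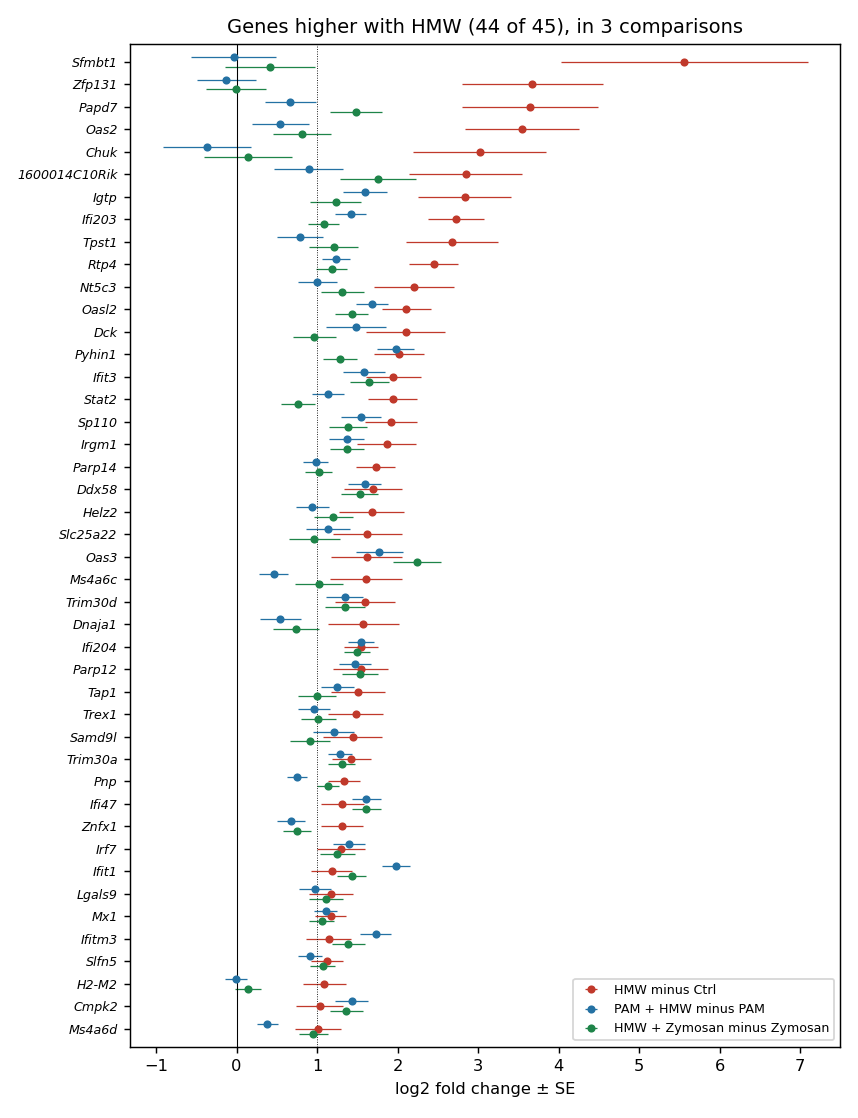
Log2 fold change ± SE of 44 of the 45 genes raised by HMW alone (rows, by size), for HMW over Ctrl (red), PAM + HMW over PAM (blue) and HMW + Zymosan over Zymosan (green), with a dotted line at the fold threshold of 1. Blue and green points of most genes lie near or beyond the threshold, with medians of 1.21 and 1.20 over the 45, and those of Zfp131 and H2-M2 lie between -0.13 and 0.14.

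Among the 45 genes, 8 were called in neither: Znfx1, Oas2, Zfp131, H2-M2, Chuk, Sfmbt1, Ms4a6d and Dnaja1. Zfp131, Chuk and Sfmbt1, which had 1, 2 and 0 counts over Ctrl, had log2 fold changes of -0.13, -0.37 and -0.03 on PAM and of -0.01, 0.14 and 0.42 on Zymosan. H2-M2 had -0.00134 and 0.14. In both comparisons 49 genes rose, 62% of the PAM list and 56.3% of the Zymosan list. Of these 49, 23 had been called with HMW alone and 26 had not, and all 26 had a log2 fold change above 0 with HMW alone, with a median of 1.07. Over all tested genes 52.6% were above 0 with HMW alone, with a median of 0.03. Members of the lists above are among the 26, and their signs were already counted there. The 26 included several well-known interferon-response genes. Isg15 rose by 1.64 and 1.56 (edgeR adjusted p = 2.38e-12 and 3.34e-10), against 0.48 alone. Rsad2 rose by 1.32 and 1.32 (adjusted p = 2.06e-10 and 1.89e-10), Cxcl10 by 1.65 and 1.04 (adjusted p = 1.46e-11 and 0.000277), and Bst2, which encodes tetherin, by 1.26 and 1.65 (adjusted p = 7.44e-07 and 8.89e-08). Ifit2, Usp18, Oasl1, Zbp1, Ifih1, Dhx58, Gbp5 and the Fc receptor gene Fcgr1 were further members. Uqcrh, the one gene lowered by HMW alone, had log2 fold changes of 0.22 and -0.31 here and was not called.

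The difference between the HMW effect with and without the other ligand was tested as an interaction. With PAM it passed for 2 genes (0.0424% of those tested), the chemokines Ccl4 and Ccl5, and with Zymosan for none of the 4720 (256 at an unadjusted p under 0.05, and 1 by DESeq2). No gene was called when HMW was added to LPS, SeV, cGAMP or CpGB, by edgeR or by DESeq2, with 218, 303, 208 and 204 genes at an unadjusted p under 0.05. Without the fold threshold, 1 gene had an edgeR adjusted p under 0.05 when HMW was added to SeV, and none on the other 3 ligands. The 45 genes had medians of 0.01, 0.15, 0.07 and -0.08 on those ligands, and Ifit1 had log2 fold changes of 0.13, 0.06, -0.05 and 0.04 (95% intervals -0.13 to 0.39, -0.20 to 0.33, -0.31 to 0.21 and -0.24 to 0.33). Whether the HMW effect on these ligands differed from that on Ctrl was not tested.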

How the data were processed

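RNA of BMDC was measured as UMI counts per gene symbol; the deposited counts are whole numbers with no normalization. Per the labels' protocols, the authors reverse transcribed total RNA with a template switching oligo. The submitters' processing notes name BWA 0.7.15 and mm10; how reads shared between genes were counted is not given in the sources used here. In edgeR 4.0.16 (R 4.3.3), filterByExpr by group kept 4720 of 23481 genes, holding 95.7% of the UMIs, and TMM factors scaled the libraries. A single quasi-likelihood model of all libraries of the series, with a coefficient for each group, pooled the spread (biological coefficient of variation 10.3%). Benjamini-Hochberg adjustment ran over the tested genes of each contrast. The SE is the log2 fold change over the square root of F, with 95% intervals, and CPM use TMM-scaled library sizes. DESeq2 1.42.0 and further settings were alternatives, and the steps were tested on simulated data. Promoter windows leave out chromosome 18.

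The members and lists were chosen with earlier results of these data known. The rule for named genes was: the called genes of the lists; the 12 rises of smallest p-value with no overlap between libraries and 20 CPM or more on average in 1 of the groups; the 3 falls of smallest p-value; Cxcl10, Ifit1, Il6, Il12b, Tnf and Il10; in a list with no call, the 3 members of highest CPM and the one of smallest p-value; and the 3 genes on each side of the fold threshold. Genes described outside it were chosen after their values were seen. A called gene counted in the totals is not reported here by name.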

Additional observations from a re-analysis of the deposited data

Results flagged for a closer look

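Adding HMW to PAM raised 2 chemokine genes that HMW alone did not, and the difference between the effects passed as an interaction. Ccl4 averaged 938 ± 196 CPM in Ctrl, 740.2 ± 31.7 with HMW, 1967 ± 212 with PAM and 4574 ± 36.7 with PAM + HMW (SD, n = 3). Its log2 fold change was -0.34 with HMW alone and 1.22 on PAM, a difference of 1.55 (SE 0.26, edgeR adjusted p = 6.03e-05). Ccl5 averaged 2225 ± 213, 2396 ± 260, 5102 ± 422 and 11390 ± 604 CPM in the same order. Its log2 fold changes of 0.11 and 1.16 differed by 1.05 (SE 0.22, edgeR adjusted p = 0.00553). In both genes each PAM + HMW library exceeded every library of the other 3 groups. Ccl4 passed whichever library was left out. Ccl5 did not pass without HMW replicate 3 (0.973, edgeR adjusted p = 0.072), Ctrl replicate 2 (0.989, adjusted p = 0.066) or PAM replicate 2 (0.99, adjusted p = 0.0508). The number of genes that passed was 1 when HMW replicate 3, Ctrl replicate 2 or PAM replicate 2 was left out, and 4 without HMW replicate 2 or PAM + HMW replicate 3.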

How the results depend on the processing

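The number of genes called for HMW against Ctrl, 46, was 42 with RLE factors, 45 with library size alone, 63 with no filter on low counts and 52 with only the 6 libraries, and all 46 remained in the last of these; it was 25 with libraries thinned to an equal total and 17 with DESeq2, and 20 to 66 with 1 library left out. The 614 calls against PAM became 289 thinned and 372 with DESeq2, and the 248 against Zymosan 112 thinned, 131 with DESeq2 and 400 with no fold threshold. Of the 45 genes, 33 were called when HMW was added to Zymosan, 18 with thinned libraries and 21 to 37 with 1 library left out. The interaction with PAM passed for 2 genes, and for 4 with RLE factors, 4 thinned, 11 with only the 4 groups compared, 5 with DESeq2 and 1 to 4 with 1 library left out. That with Zymosan passed for none, and for 1 with RLE factors, 1 with no filter, 1 with only the groups compared, 1 with DESeq2 and 0 to 1 with 1 library left out. The inflammatory list's median of -0.11 was 0.0363 with no filter, 0.0455 thinned and 0 to 0.0907 with 1 library left out, while that of the interferon-response list stayed between 0.76 and 1.32. The cause of these changes was not tested.

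Directions turned for a few genes that were not called in any setting. With no filter, the log2 fold change was 0.043 for Lyz2, 0.069 for Csf1r, 0.072 for S100a9, 0.12 for H2-Eb1, 0.13 for H2-Ab1 and 0.036 for Il12b. Thinned, it was -0.012 for Ctss, 0.11 for Il6, -0.19 for H2afz, -1.68 for Tcf4 and -0.0011 for S100a8, which had -0.055 with RLE factors, -0.014 with library size alone and -0.020 with DESeq2. With 1 library left out it ranged from -0.31 to 0.0054 for Pcna, -0.58 to 0.21 for Il6, -1.73 to 0.045 for Ifnb1, -0.10 to 0.31 for H2afz, -0.29 to 0.091 for S100a9, -0.11 to 0.029 for H2-Eb1, -0.13 to 0.085 for H2-Ab1, -0.26 to 0.36 for Ngp, -0.030 to 0.48 for Tcf4, -0.89 to 0.65 for Il12b and -0.26 to 0.32 for S100a8.

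With the replicate number as a block, 47 genes were called, among them all 46; the block moved no count by more than 1.5 times and ended no call of the 46. Deviations from the group means of libraries that share a number correlated at 0.03, 0.01 and -0.0042 between HMW and Ctrl. With a chi-square per degree of freedom of 1.10 to 1.40 between replicates, such deviations are largely counting error. These correlations therefore cannot show whether libraries with the same number share a source, and the numbers were not taken to pair the libraries. Depth limits the low genes: the median SE of the log2 fold change was 0.93 for genes under 20 CPM in Ctrl and 0.15 above 500.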

Other observations

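Suppressors of cytokine signalling, induced by cytokine receptors and acting back on them, differed between HMW and PAM. Socs3 and Socs1 were lower with HMW than with PAM, by log2 fold changes of -2.95 and -1.43 (edgeR adjusted p = 2.95e-22 and 0.00328), while against Ctrl they were at -0.02 and 1.02 (adjusted p = 0.997 and 0.758). Against Zymosan they were at -0.77 and -0.13 (adjusted p = 0.186 and 0.927).

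Few genes were lowered when HMW was added to another ligand, and none in both comparisons. On PAM the falls were Dcaf8 (log2 fold change -2.48), a substrate receptor of a ubiquitin ligase, Tiprl (-1.81), Mmp9 (-1.26), a matrix-degrading protease, and Ybey (-1.25), with edgeR adjusted p = 0.0152, 0.0241, 0.0344 and 0.0471. On Zymosan they were Slc37a3 (-5.15), Rrn3 (-1.49), a factor of RNA polymerase I, B4galnt1 (-1.41), Ptprs (-1.26) and Slc24a6 (-1.25), with adjusted p = 0.0143, 0.0182, 0.0345, 0.0420 and 0.0433. With HMW alone their log2 fold changes ran from -0.56 to 0.59 and none was called.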
